A study of Mus musculus with 16 samples.

Results

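The genes described here are 10 core components and outputs of the circadian clock in mouse astrocytes: Bmal1 (listed as Arntl), Clock, Per1, Per2, Per3, Cry1, Cry2, Nr1d1, Nr1d2 and Dbp. All 10 were found by symbol in the deposited log2 CPM table, among 16707 genes. The set was chosen by attention to Bmal1, which stood higher in Nlrx1-/- than in WT cells, so that the genotype difference of Bmal1 is given as a description with no test. Bulk RNA was sequenced from primary astrocytes positively selected with ACSA-2 beads from the brains of neonatal pups (P6 in the labels), either WT (C57BL6J) or lacking NLRX1, a mitochondrial NLR family protein, in every cell (NLRX1-/-, here Nlrx1-/-). The astrocytes grew for approximately 10 days in serum-free medium with heparin-binding EGF, and 2 wells of each culture then received vehicle (H2O) or 500 ng/mL LPS with 10 ng/mL IFNγ for 24 h. The 16 libraries fall into 4 groups of 4 litters: WT vehicle, WT LPS+IFNγ, Nlrx1-/- vehicle and Nlrx1-/- LPS+IFNγ. Each litter gave both a vehicle and a stimulated well, so responses were tested within litters, while genotypes were compared between litters.

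The mammalian clock is a loop of transcription and feedback that runs in most cells, astrocytes included. BMAL1 and CLOCK form a dimer that binds E-boxes and switches on the Per and Cry genes, whose proteins then block the dimer. The same dimer drives Nr1d1 and Nr1d2, which encode the REV-ERB repressors of Bmal1, and the output gene Dbp, whose protein acts through D-boxes. In a rhythmic culture the level of each of these genes depends on the time of harvest, which is not given in the sources used here. All wells of a condition were collected at one time point after treatment, so phase, amplitude and mean level cannot be told apart in these data.

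The promoters of the clock genes carry the sites through which they act on each other, and the short sites found by exact match are shown here beside the genes whose levels follow. RefSeq promoter windows (GRCm38.p6), which run from 250 bases before to 50 after a start site, were held for 9 of the 10 genes, in 13 windows. All 13 were found once by exact match near their gene in GRCm39, the build of the coordinates below. Both strands were searched for the E-box CACGTG, for the E-prime box CACGTT, which differs from it in the last letter, for the D-boxes TTATGTAA and TTACGTAA, and for the REV-ERB/ROR elements TAGGTCA and TGGGTCA. Capitals mark the match, and positions count from the start site at 0.
Bmal1, REV-ERB/ROR element, chr7:112806737-112806765, plus strand: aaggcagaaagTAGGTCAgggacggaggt
Per1, E-box, chr11:68989589-68989634, plus strand: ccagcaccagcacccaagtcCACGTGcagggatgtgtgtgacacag
Cry1, E-box, chr10:85020953-85020998, minus strand: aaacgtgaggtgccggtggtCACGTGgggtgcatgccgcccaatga
Cry1, E-prime box, chr10:85020972-85021017, minus strand: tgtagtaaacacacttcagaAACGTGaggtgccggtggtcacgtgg
Cry2, E-prime box, chr2:92264555-92264600, minus strand: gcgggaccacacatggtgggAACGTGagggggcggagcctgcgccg
Nr1d1, E-prime box, chr11:98666206-98666251, minus strand: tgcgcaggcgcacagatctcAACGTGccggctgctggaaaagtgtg
Per3, upstream D-box, chr4:151129300-151129347, minus strand: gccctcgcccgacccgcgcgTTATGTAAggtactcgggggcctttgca
Per3, downstream D-box, chr4:151129253-151129300, minus strand: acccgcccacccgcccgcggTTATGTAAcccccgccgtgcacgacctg

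The REV-ERB/ROR element of Bmal1 began 30 bases after one of its start sites, and none of the other 8 genes with windows held this element. The E-box of Cry1 lay at -60 and its E-prime box at -79, and the E-box of Per1 at -166. Per3 held 2 D-boxes, at -205 and -158, and was the only one of the genes searched with a D-box. Over all 32851 windows of 27025 genes, the E-box was found in 7.15%, the E-prime box in 4.68%, a D-box in 1.06% and a REV-ERB/ROR element in 6.45%. A match describes these letters only. The windows of Clock, Dbp and Nr1d2 held none of the motifs.

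Every one of the 10 clock genes was expressed in all 16 libraries. The libraries held 27259420 to 43752903 read pairs assigned by Salmon, and the 10 genes had between 334 and 4228 counted read pairs in any library. On the log2 CPM scale, in which 1 unit is a doubling, single values ran from 4.08 to 6.97. Nlrx1 lay between 4.08 and 4.44 log2 CPM in the WT libraries and between 1.09 and 2.96 in the Nlrx1-/- libraries, so that the targeted gene was lower, though not at 0, in all 8 knockout libraries. Per transcript length (TPM), Dbp was the most abundant in WT vehicle cells at 112 ± 26.6 (SD, n = 4), followed by Nr1d2 at 47.2 ± 5.83 and Nr1d1 at 38.6 ± 10.0. Cry2 stood at 28.3 ± 4.48, Cry1 at 21.9 ± 2.46, Per3 at 20.5 ± 2.67 and Per1 at 15.7 ± 3.28 TPM. The lowest were Per2 at 15.01 ± 1.03, Bmal1 at 13.9 ± 1.10 and Clock at 11.5 ± 3.24 TPM. Only Dbp and Nr1d2 were further apart than the sum of their SDs; each other pair of neighbours in this order was not. The TPM of Clock, Per3 and Nr1d2 are sums over the transcripts paired with a symbol, which for these 3 genes are incomplete, so their levels and their places in the order may be too low.

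The counts of 3 genes were incomplete, because some of their transcripts could not be paired with a symbol. Summed Salmon counts reached 52.8 to 103.9% of the count implied by the deposited table for Clock, 58.3 to 80.1% for Per3 and 77.4 to 85.1% for Nr1d2. For these 3 genes the fit of limma to the deposited log2 CPM is given beside that of edgeR. Nr1d1 (chr11:98658752-98666188, minus strand, GRCm39) shares 1694 of its 3242 exonic bases with Thra, the thyroid hormone receptor alpha gene on the other strand. The libraries were not strand-specific, so reads from the shared exons cannot be told apart. Overlaps with protein-coding exons on the other strand were smaller for Clock (Tmem165, 11.9% of its exonic bases), Dbp (Sphk2, 15.5%) and Per3 (Uts2, 1.47%).

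**Figure D1:**
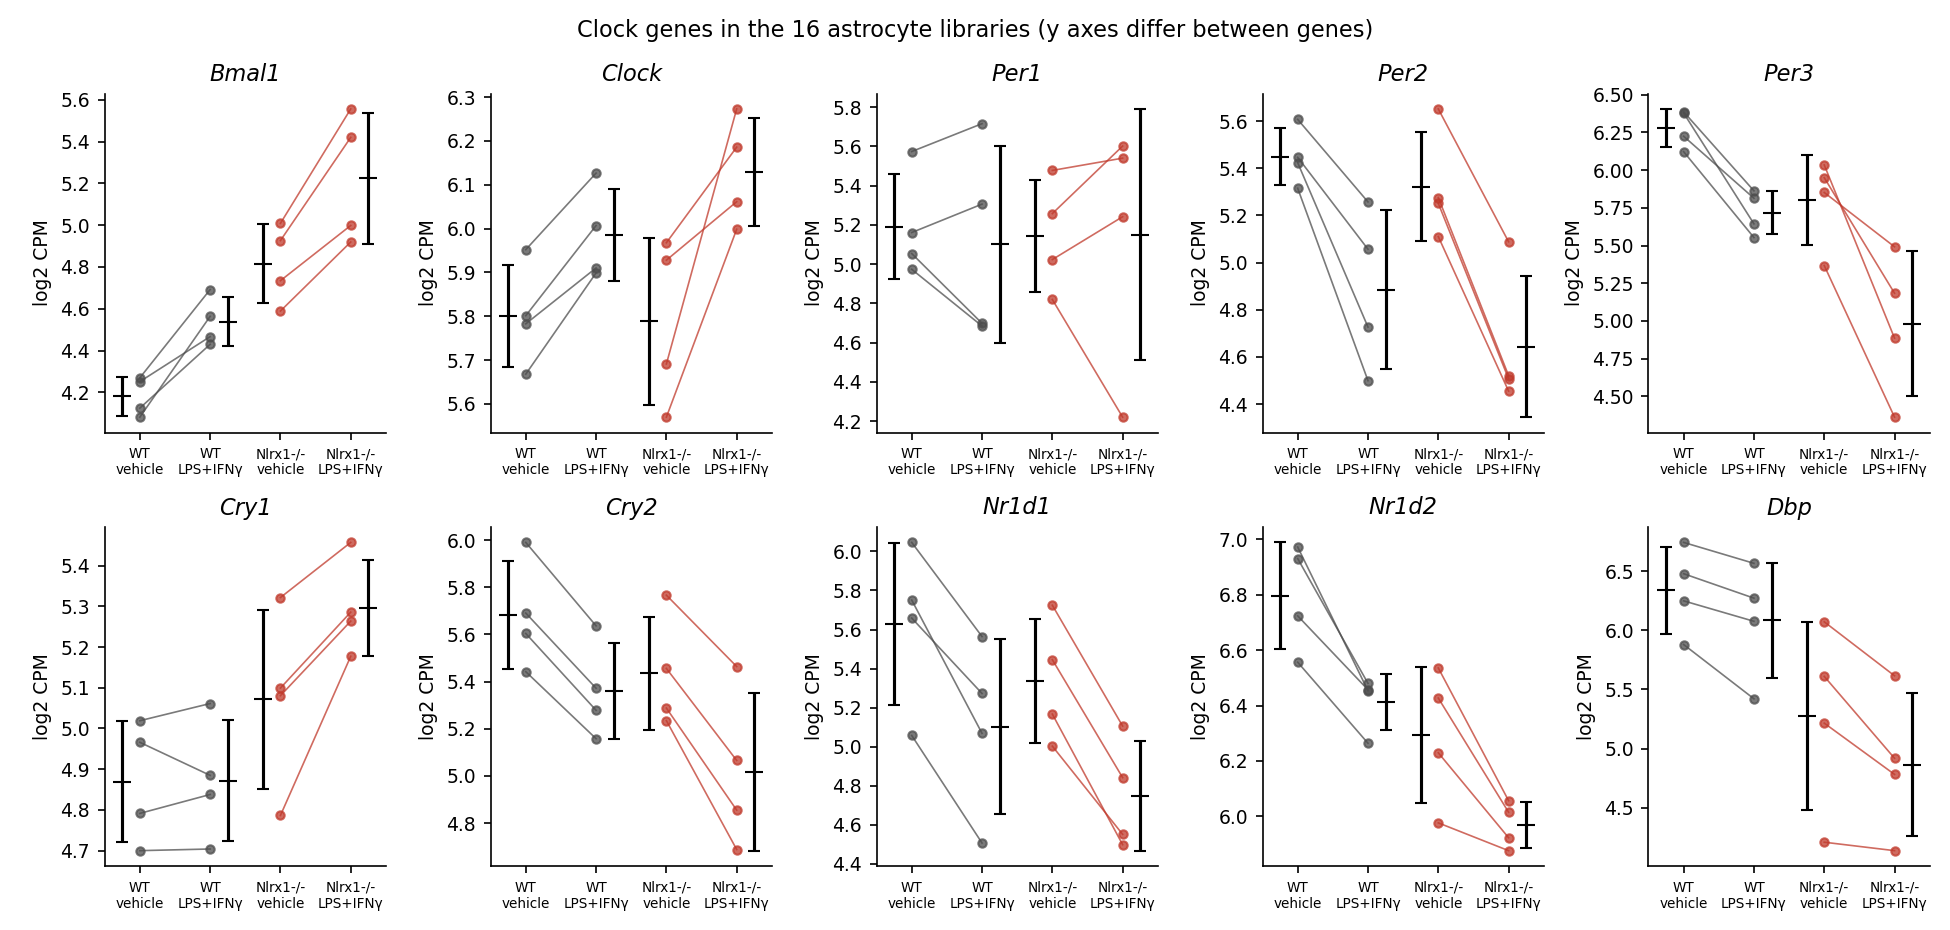
Deposited log2 CPM (y axis, scaled to each gene) of the 10 clock genes in the 4 groups; points are libraries, lines join the 2 wells of a litter, and bars give the mean ± SD of 4 litters. The lines of Bmal1 and Clock all rise and those of Per2, Per3, Cry2, Nr1d1, Nr1d2 and Dbp all fall, and the Bmal1 points of Nlrx1-/- cells lie above those of WT cells within each treatment.

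In WT astrocytes, 24 h of LPS+IFNγ raised both activators of the clock and lowered most of its repressors and outputs. By edgeR's quasi-likelihood test with Benjamini-Hochberg adjustment over 16070 genes, 2 of the 10 genes rose, Bmal1 and Clock, where 23.7% of all genes tested rose. The genes that fell were 6 of 10, namely Per2, Per3, Cry2, Nr1d1, Nr1d2 and Dbp, where 20.2% of all genes tested fell. In Nlrx1-/- astrocytes 3 of 10 rose, with Cry1 added to Bmal1 and Clock, against 25.2% of all genes. The 6 genes named above fell there too, against 24.2% of all genes. The median log2 fold change of the 10 genes was -0.30 in WT and -0.39 in Nlrx1-/- cells, and over all genes tested it was -0.02 and -0.03. Per1 was called in neither genotype.

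Counted by litters, Bmal1 and Clock were higher after LPS+IFNγ in 8 of 8 litters. The 6 genes that fell were lower in 8 of 8. Among all 16707 genes of the deposited table, 23.2% had a response above 0 in all 8 litters and 20.7% one below 0.

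Bmal1 (chr7:112806152-112914735, plus strand) encodes the partner that CLOCK needs to bind DNA. In WT vehicle wells its levels were 4.27, 4.12, 4.25 and 4.08 log2 CPM in litters 1 to 4, and in the stimulated wells of the same litters 4.69, 4.43, 4.47 and 4.56. In Nlrx1-/- vehicle wells they were 4.73, 5.01, 4.59 and 4.93, and in the stimulated wells 5.00, 5.56, 4.92 and 5.42. Stimulated and vehicle wells did not overlap in WT cells, whereas in Nlrx1-/- cells their ranges overlapped. The log2 fold change was 0.33 ± 0.0774 (SE) in WT (edgeR adjusted p = 0.00602) and 0.41 ± 0.0759 in Nlrx1-/- cells (edgeR adjusted p = 0.00114). These correspond to rises of 1.28 and 1.33 times in the mean of the deposited values.

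Clock (chr5:76342860-76452846, minus strand), the other partner of the dimer, rose less evenly. Its WT levels were 5.95, 5.67, 5.78 and 5.80 log2 CPM with vehicle and 6.13, 5.90, 5.91 and 6.01 with LPS+IFNγ. Nlrx1-/- wells held 5.93, 5.97, 5.57 and 5.69 with vehicle and 6.06, 6.19, 6.00 and 6.27 with LPS+IFNγ. Each litter rose, by 0.13 to 0.23 in WT and by 0.13 to 0.58 in Nlrx1-/- cells. The WT log2 fold change was 0.35 ± 0.111 by edgeR (adjusted p = 0.025) and 0.18 ± 0.0699 by limma on the deposited values (adjusted p = 0.0471). In Nlrx1-/- cells it was 0.30 ± 0.11 by edgeR (adjusted p = 0.0411) and 0.34 ± 0.0699 by limma (adjusted p = 0.00151). The edgeR call of Clock was lost without WT litter 3 (0.25, adjusted p = 0.135) or WT litter 4 (0.26) in WT cells. By limma on the deposited values the WT call held without any one of the 4 Nlrx1-/- litters and was lost without any one of the 4 WT litters (adjusted p of up to 0.147). In Nlrx1-/- cells the edgeR call was lost without any one of the 4 Nlrx1-/- litters or WT litter 2, at 0.28 to 0.32.

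The period genes encode the repressors that build up to close the loop. Per2 (chr1:91343700-91387069, minus strand) stood at 5.61, 5.45, 5.42 and 5.32 log2 CPM in WT vehicle wells and at 5.26, 5.06, 4.73 and 4.50 after LPS+IFNγ. In Nlrx1-/- cells it went from 5.65, 5.28, 5.11 and 5.25 to 5.09, 4.52, 4.45 and 4.51. Stimulated wells lay below all vehicle wells of their genotype. The log2 fold change of Per2 was -0.54 ± 0.089 in WT (edgeR adjusted p = 0.000645) and -0.69 ± 0.0893 in Nlrx1-/- cells (edgeR adjusted p = 0.000109).

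Per3 (chr4:151081373-151129140, minus strand), a period gene whose loss leaves the core loop running, had the largest fall of the 10 genes in both genotypes by edgeR. WT vehicle wells held 6.22, 6.38, 6.12 and 6.39 log2 CPM and stimulated wells 5.81, 5.64, 5.55 and 5.86. Nlrx1-/- vehicle wells held 5.95, 5.37, 5.85 and 6.03 and stimulated wells 5.18, 4.36, 5.49 and 4.89. The groups of WT wells did not overlap, and in Nlrx1-/- cells stimulated litter 3 stayed above unstimulated litter 2. By edgeR Per3 fell by 0.67 ± 0.119 in WT (adjusted p = 0.00104) and by 0.94 ± 0.122 in Nlrx1-/- cells (adjusted p = 0.000111). By limma on the deposited values it fell by 0.56 ± 0.105 and by 0.82 ± 0.105, close to Per2 in WT cells.

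Per1 (chr11:68986035-69002300, plus strand), the period gene that reacts fastest to signals from outside the cell, went up in 5 litters and down in 3. Its WT responses were 0.14, 0.14, -0.36 and -0.29 log2 units in litters 1 to 4, and its Nlrx1-/- responses were 0.06, 0.34, -0.60 and 0.22. The litters thus split in both genotypes. The log2 fold change was -0.10 ± 0.14 in WT (edgeR adjusted p = 0.615) and -0.01 ± 0.14 in Nlrx1-/- cells (edgeR adjusted p = 0.979), which does not show that Per1 was unaffected.

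The cryptochromes are the partners of the PER proteins, and the 2 genes went separate ways. Cry2 (chr2:92233894-92264474, minus strand) fell by 0.28 to 0.35 log2 units in the 4 WT litters and by 0.30 to 0.55 in the 4 Nlrx1-/- litters. Its log2 fold change was -0.33 ± 0.057 in WT (edgeR adjusted p = 0.000862) and -0.43 ± 0.0575 in Nlrx1-/- cells (edgeR adjusted p = 0.000131). The spread of the WT response, with an SD of 0.03 over 4 litters, was the narrowest of the 10 genes, although the litters started from levels between 5.44 and 5.99.

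Cry1 (chr10:84967560-85021252, minus strand) was the 1 gene of the 10 whose responses did not overlap between genotypes, being higher in Nlrx1-/- cells, as were those of 3.06% of all 16707 genes (lower in 5.25%). It changed by -0.08, 0.05, 0.04 and 0.00 log2 units in the WT litters and by 0.19, 0.14, 0.18 and 0.39 in the Nlrx1-/- litters. The log2 fold change was -0.01 ± 0.0624 in WT (edgeR adjusted p = 0.933) and 0.21 ± 0.0617 in Nlrx1-/- cells (edgeR adjusted p = 0.0164). Without Nlrx1-/- litter 4 the latter was 0.16 and was no longer called (edgeR adjusted p = 0.0724). The test of the difference between the 2 responses gave 0.22 ± 0.0878, with an unadjusted edgeR p of 0.0319 from the fit across all genes and an adjusted p of 0.284, so a genotype-dependent response of Cry1 was not established.

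Nr1d1 and Nr1d2 encode REV-ERBα and REV-ERBβ, nuclear receptors that repress Bmal1. Nr1d1 went from 5.06, 5.66, 5.75 and 6.05 log2 CPM in WT vehicle wells to 4.51, 5.27, 5.07 and 5.56 after LPS+IFNγ. In Nlrx1-/- cells it went from 5.45, 5.00, 5.72 and 5.17 to 4.84, 4.55, 5.11 and 4.50. The levels of treated and untreated wells overlapped between litters, and each litter fell. The log2 fold change was -0.52 ± 0.0605 in WT (edgeR adjusted p = 6.12e-05) and -0.61 ± 0.0609 in Nlrx1-/- cells (edgeR adjusted p = 1.66e-05). Thra, which shares exons with Nr1d1, fell by 0.18 ± 0.0629 in WT and by 0.54 ± 0.0632 in Nlrx1-/- cells (edgeR adjusted p = 0.0424 and 5.13e-05), and its part in the Nr1d1 values was not tested.

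Nr1d2 (chr14:4230545-4266624, plus strand) went from 6.56, 6.97, 6.72 and 6.93 log2 CPM to 6.26, 6.45, 6.46 and 6.48 in WT cells. In Nlrx1-/- cells it went from 6.43, 5.98, 6.54 and 6.23 to 6.01, 5.88, 6.06 and 5.92. Stimulated WT wells lay below all vehicle WT wells and close together. The log2 fold change was -0.35 ± 0.0766 in WT by edgeR (adjusted p = 0.00412) and -0.38 ± 0.0675 by limma (adjusted p = 0.00062). In Nlrx1-/- cells it was -0.35 ± 0.0772 by edgeR (adjusted p = 0.00371) and -0.32 ± 0.0675 by limma (adjusted p = 0.00165).

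Dbp (chr7:45354512-45359627, plus strand) encodes a PAR bZIP transcription factor and is a direct output of the BMAL1-CLOCK dimer. WT vehicle wells held 5.88, 6.48, 6.25 and 6.74 log2 CPM and stimulated wells 5.42, 6.27, 6.08 and 6.56. Nlrx1-/- vehicle wells held 5.61, 4.21, 6.07 and 5.22 and stimulated wells 4.92, 4.14, 5.62 and 4.78. The range over the Nlrx1-/- litters was wider than any response to stimulation. Within litters Dbp fell by 0.26 ± 0.0898 in WT (edgeR adjusted p = 0.0357) and by 0.44 ± 0.0925 in Nlrx1-/- cells (edgeR adjusted p = 0.00271). The WT call was lost when any one of the 4 WT litters was left out, the log2 fold change then lying between -0.29 and -0.19, with an edgeR adjusted p of up to 0.163.

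**Figure D2:**
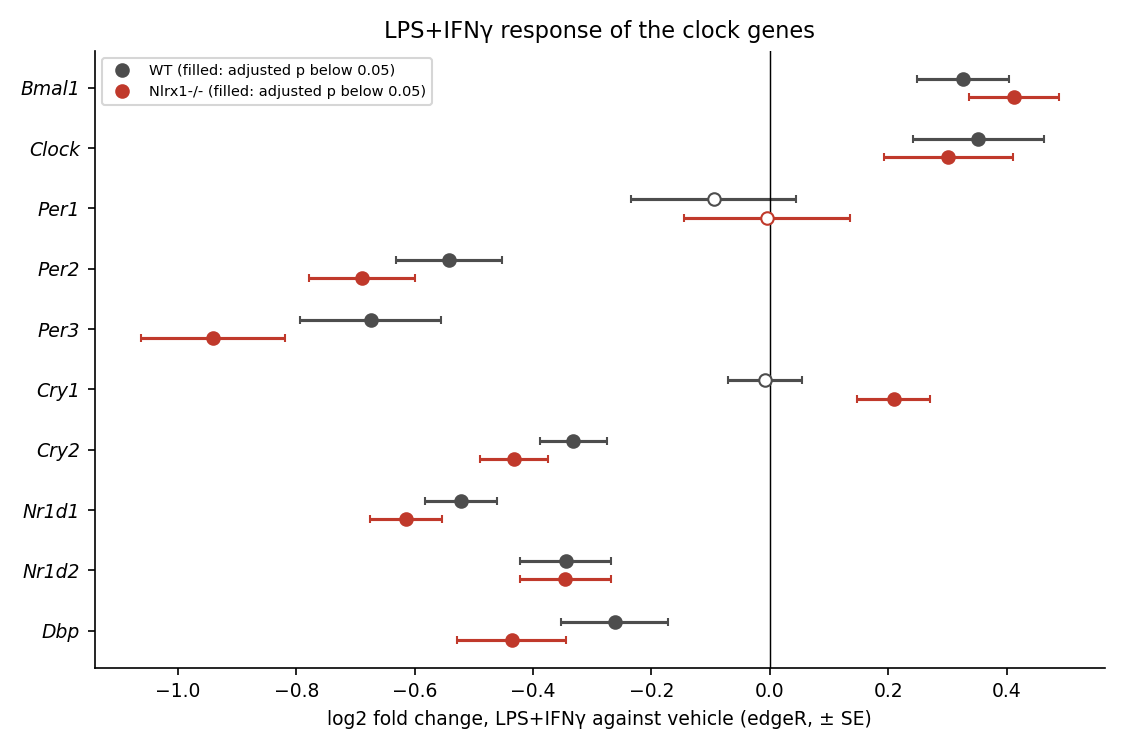
Log2 fold change of LPS+IFNγ against vehicle on the x axis for the 10 clock genes, in WT (grey) and Nlrx1-/- (red) astrocytes, from edgeR with litters as blocks. Bars are ± SE, worked back from the test statistic of the edgeR fit of all 16 libraries (4 litters a genotype), and filled points have an adjusted p below 0.05. Bmal1 and Clock lie to the right of 0 and 6 genes to the left, in both genotypes.

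The response of none of the 10 genes differed between genotypes after adjustment. The edgeR interaction test called 0 of the 10 genes and 0% of all genes tested, with 1 of the 10 at an unadjusted p below 0.05 (Cry1), as were 15.4% of all genes. DESeq2, limma-voom and limma on the deposited values also called 0 of the 10. Of all genes, the 2 limma fits called 0, whereas DESeq2 called 111 of 16070 higher and 185 lower. The largest differences in size were those of Per3 at -0.27 ± 0.17 (edgeR adjusted p = 0.483), Cry1 at 0.22 ± 0.0878 and Dbp at -0.17 ± 0.129 (edgeR adjusted p = 0.547). For Bmal1 the difference between responses was 0.09 ± 0.108 (edgeR adjusted p = 0.748). Clock changed sign with the fit, from -0.05 ± 0.156 by edgeR to 0.16 ± 0.0989 by limma on the deposited values.

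Between genotypes, edgeR called none of the clock genes tested with vehicle, and Cry1 as higher and Nr1d2 as lower in Nlrx1-/- cells after LPS+IFNγ. Bmal1 was 4.18 ± 0.09 (SD, n = 4) log2 CPM in WT vehicle wells and 4.81 ± 0.19 in Nlrx1-/- vehicle wells, a difference of 0.63 or 1.55 times. After LPS+IFNγ it was 4.54 ± 0.12 and 5.22 ± 0.31, a difference of 0.69 or 1.61 times. In both treatments all Nlrx1-/- litters lay above all WT litters, as they did for 6.02% of all 16707 genes with vehicle and 7.09% with LPS+IFNγ. Leaving out one litter at a time moved these differences to between 0.57 and 0.71 with vehicle and between 0.58 and 0.79 with LPS+IFNγ. These values led to the choice of the genes and carry no test.

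Of the other 9 genes, edgeR called 0 in vehicle wells, where it called 0% of all genes tested and where 3 of the 9 had an unadjusted p below 0.05 (Per3, Nr1d2 and Dbp), as did 19.6% of all genes. DESeq2 called 1 of the 9, Nr1d2, and 4.57% of all genes, and limma-voom called 0 of the 9. After LPS+IFNγ, edgeR called Cry1 as higher in Nlrx1-/- cells, 1 of 9 where 2.64% of all genes were higher, and Nr1d2 as lower, 1 of 9 where 2.39% were lower. DESeq2 and limma on the deposited values each called 4 of the 9 there, and 15.2% and 8.8% of all genes. The median log2 fold change of the 9 genes was -0.26 with vehicle and -0.34 with LPS+IFNγ, beside 0.000579 and -0.01 over all genes tested.

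Nr1d2 differed by -0.50 ± 0.125 with vehicle (edgeR adjusted p = 0.112, and 0.0928 by limma on the deposited values). With LPS+IFNγ it differed by -0.51 ± 0.126 (edgeR adjusted p = 0.0417) and by -0.45 ± 0.111 by limma (adjusted p = 0.0356). By limma the call was lost without WT litter 2, 3 or 4 or Nlrx1-/- litter 2 or 4 (adjusted p of up to 0.132). Of all 16707 genes, each of these limma fits called at most 1 higher and at most 2 lower. Every Nlrx1-/- well lay below every WT well of the same treatment, although only just with vehicle, where the highest Nlrx1-/- value was 6.54 and the lowest WT value 6.56. Cry1 differed by 0.20 ± 0.112 with vehicle (edgeR adjusted p = 0.335) and by 0.41 ± 0.112 with LPS+IFNγ (edgeR adjusted p = 0.0487). Its WT wells held 4.97, 4.79, 5.02 and 4.70 log2 CPM with vehicle and 4.88, 4.84, 5.06 and 4.70 with LPS+IFNγ. Its Nlrx1-/- wells held 5.10, 5.32, 5.08 and 4.79 with vehicle and 5.29, 5.46, 5.26 and 5.18 with LPS+IFNγ, the latter all above WT.

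Dbp had the largest genotype difference of the 9 genes tested and the widest error. Its level was 6.34 ± 0.37 in WT and 5.28 ± 0.79 in Nlrx1-/- vehicle wells, and 6.08 ± 0.48 and 4.86 ± 0.61 after LPS+IFNγ. By edgeR it differed by -0.96 ± 0.355 with vehicle (adjusted p = 0.173) and by -1.19 ± 0.359 with LPS+IFNγ (adjusted p = 0.0572), and limma on the deposited values gave -1.22 ± 0.359 in the latter (adjusted p = 0.0466). In each treatment 3 of 4 Nlrx1-/- litters lay below all WT litters, and litter 3 did not. Per3 differed by -0.51 ± 0.206 with vehicle (edgeR adjusted p = 0.196). With LPS+IFNγ it differed by -0.73 ± 0.21 by edgeR (adjusted p = 0.0529) and by -0.74 ± 0.188 by limma (adjusted p = 0.0366). That limma call was lost without WT litter 2, 3 or 4 or Nlrx1-/- litter 2 or 4 (adjusted p of up to 0.133). Each of these fits called at most 1 of all 16707 genes higher and at most 2 lower.

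By range alone, 2 of the 9 genes, Per3 and Nr1d2, had all Nlrx1-/- litters below all WT litters with vehicle, where 3.43% of the 16707 genes did, and the same 2 genes did so with LPS+IFNγ, where 6.23% did. Cry1 was 1 of the 9 with all Nlrx1-/- litters above WT with LPS+IFNγ, where 7.09% did, and 0 of the 9 did so with vehicle, where 6.02% did. The remaining 6 genes overlapped between genotypes in both treatments. Clock, which edgeR put at 0.21 ± 0.162 with vehicle, was at -0.01 ± 0.0949 by limma on the deposited values (adjusted p = 0.963). Per1, Per2, Cry2 and Nr1d1 differed by -0.06, -0.11, -0.26 and -0.32 log2 units with vehicle and by 0.05, -0.28, -0.34 and -0.41 with LPS+IFNγ, none past the threshold by edgeR. Thra, which shares exons with Nr1d1, differed by -0.28 ± 0.148 with vehicle (edgeR adjusted p = 0.314). With LPS+IFNγ Thra differed by -0.63 ± 0.149 (edgeR adjusted p = 0.0404), and its part in the Nr1d1 differences was not tested.

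**Figure D3:**
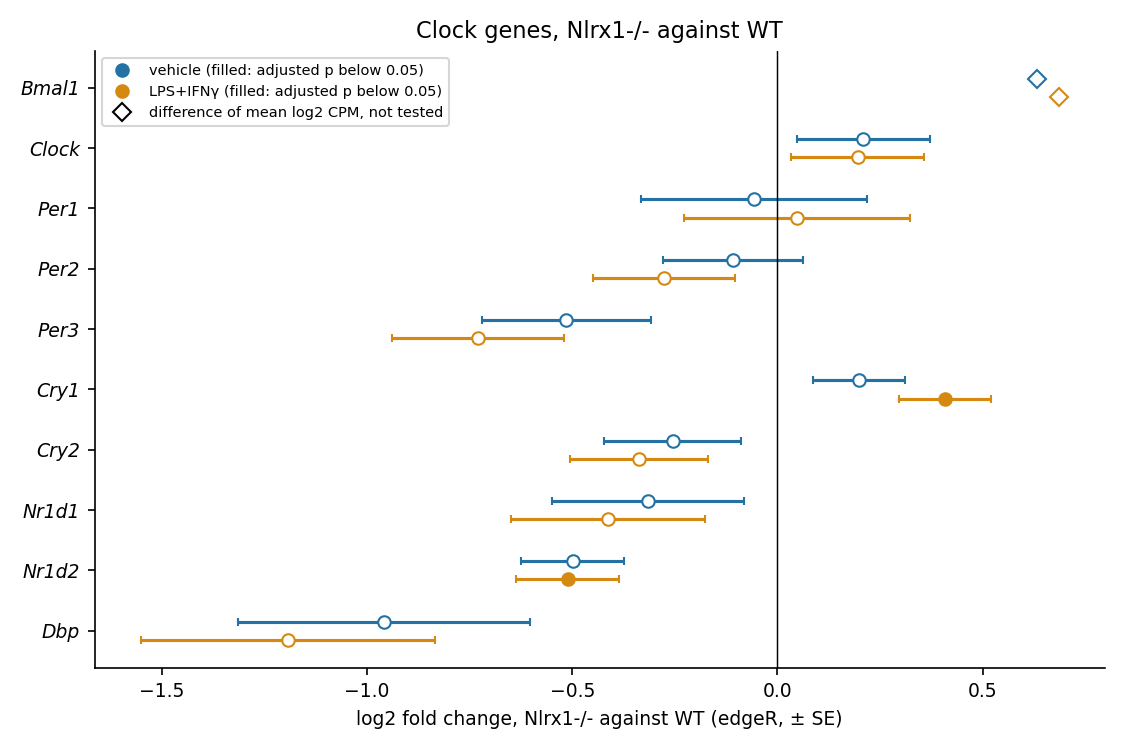
Log2 fold change of Nlrx1-/- against WT on the x axis, with vehicle (blue) and LPS+IFNγ (orange), for the 10 clock genes; circles and bars are edgeR estimates ± SE, filled where the adjusted p is below 0.05, and the open diamonds of Bmal1 are differences of mean log2 CPM with no test. Cry1 and Nr1d2 with LPS+IFNγ are the filled points, and Dbp lies farthest to the left.

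The calls after LPS+IFNγ changed with the litters fitted, for these genes and for all genes. Of the 2 genes called, edgeR called 0 when WT litter 2, 3 or 4 or Nlrx1-/- litter 1, 2 or 4 was left out. Without those WT litters it called 0 of all genes higher and 1, 2 and 1 lower. Without those Nlrx1-/- litters it called 148, 7 and 2 higher and 72, 6 and 2 lower. With every litter in the fit, 425 of all genes were higher and 384 lower. The log2 fold changes ran from -0.56 to -0.48 for Nr1d2 and from 0.35 to 0.47 for Cry1 with a litter left out. Without Nlrx1-/- litter 3, edgeR called 5 of 9 (Cry1, Cry2, Dbp, Nr1d2 and Per3) and 20.4% of all genes. Without WT litter 1 it called Dbp and Nr1d2 but not Cry1 (adjusted p = 0.0589), and 8.58% of all genes. A fit to the 8 stimulated libraries alone called 0 of these genes and 0 of all 14970 genes tested. Without Nlrx1-/- litter 3, Dbp and Nr1d2 were also called with vehicle, at -1.25 and -0.60, as were 7.97% of all genes. Nlrx1-/- litter 3 was the litter nearest to WT in Bmal1 and Dbp in both treatments. Conversely, WT litter 1 had the lowest Dbp and Nr1d1 of the WT litters and the highest Bmal1.

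Some markers of cell types also differed between genotypes after LPS+IFNγ, where 2.39% of all genes tested were lower and 2.64% higher in Nlrx1-/- cells. Of 9 astrocyte markers, edgeR then called 3 lower (Aqp4, Gja1 and S100b, adjusted p = 0.0499, 0.0471 and 0.0442). With vehicle it called 0 of the 9, where it called 0% of all genes. Their summed level ran from 6434 to 10213 CPM in WT vehicle, 5803 to 8701 in WT LPS+IFNγ, 4968 to 7913 in Nlrx1-/- vehicle and 5058 to 6728 in Nlrx1-/- LPS+IFNγ libraries. Of 8 oligodendrocyte lineage markers, 1 (Pdgfra) was lower in stimulated Nlrx1-/- cells, and their sums ran from 2712 to 3361, 2214 to 2953, 2820 to 3733 and 2135 to 2800 CPM in the same order. Of 8 microglia markers 1, P2ry12, was in the deposited table, at 0.0481 to 1.78 CPM. It rose by 2.26 ± 0.709 in Nlrx1-/- cells (edgeR adjusted p = 0.0218) and by 1.78 ± 0.726 in WT cells (edgeR adjusted p = 0.0701). The difference between these responses was not called. The other 7 reached at most 16 counts in any library, with Aif1 at 0 to 5 and C1qa at 0 to 16. None of the 3 endothelial markers was in the table, and they reached at most 4 (Cldn5), 16 (Pecam1) and 38.1 counts (Cdh5). Of the 5 neuronal, 5 fibroblast and mural and 2 ependymal markers tested, 0 differed between genotypes by edgeR. In response to LPS+IFNγ, 2 astrocyte markers rose and 4 fell in WT cells and 2 rose and 5 fell in Nlrx1-/- cells, while 5 and 6 of the 8 oligodendrocyte lineage markers fell. Of the 5 neuronal markers, 1 rose and 2 fell in WT and 2 rose and 3 fell in Nlrx1-/- cells. Of all genes tested, 23.7% rose and 20.2% fell in WT cells, and 25.2% rose and 24.2% fell in Nlrx1-/- cells. The sum of the neuronal markers followed Tubb3, whose mean went from 10.1 to 65.8 CPM in WT and from 8.40 to 62.1 in Nlrx1-/- cells. Syn1 and Rbfox3 fell in both genotypes. The sum lay between 29.9 and 33.2 CPM in WT vehicle and between 64.5 and 95.9 in WT LPS+IFNγ libraries. In Nlrx1-/- libraries they lay between 28.6 and 36.1 and between 67.3 and 86.3, while fibroblast and mural markers stayed between 102 and 287 CPM and ependymal markers between 70.5 and 227. The part of cell makeup in the clock gene values was not tested, and in bulk RNA fewer cells of a type and less RNA per cell cannot be told apart.

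The clock genes varied with Bmal1 to different degrees. Over the 16 libraries, Bmal1 correlated with Nr1d2 at r = -0.94, with Per3 and Dbp at r = -0.89, with Cry2 at r = -0.79 and with Nr1d1 at r = -0.76. Its r was 0.73 with Cry1, 0.65 with Clock, 0.19 with Per1 and -0.56 with Per2. These values hold the effects of genotype and stimulation. Each gene was also centred on the mean of its condition, which leaves the spread between litters. Bmal1 then kept r = -0.81 with Dbp, -0.72 with Nr1d2, -0.71 with Per3, -0.69 with Nr1d1 and -0.60 with Cry2. Its r was then 0.68 with Clock, 0.52 with Per1, 0.22 with Cry1 and -0.07 with Per2. Dbp then correlated with Nr1d2 at 0.89, with Nr1d1 at 0.85 and with Cry2 at 0.81. Per1 had r = -0.88 to Cry2, -0.67 to Nr1d1, -0.66 to Dbp, 0.59 to Clock and 0.74 to Per2. Both wells of a litter share the culture, so the 16 points are not independent, and all values share the library scaling.

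**Figure D4:**
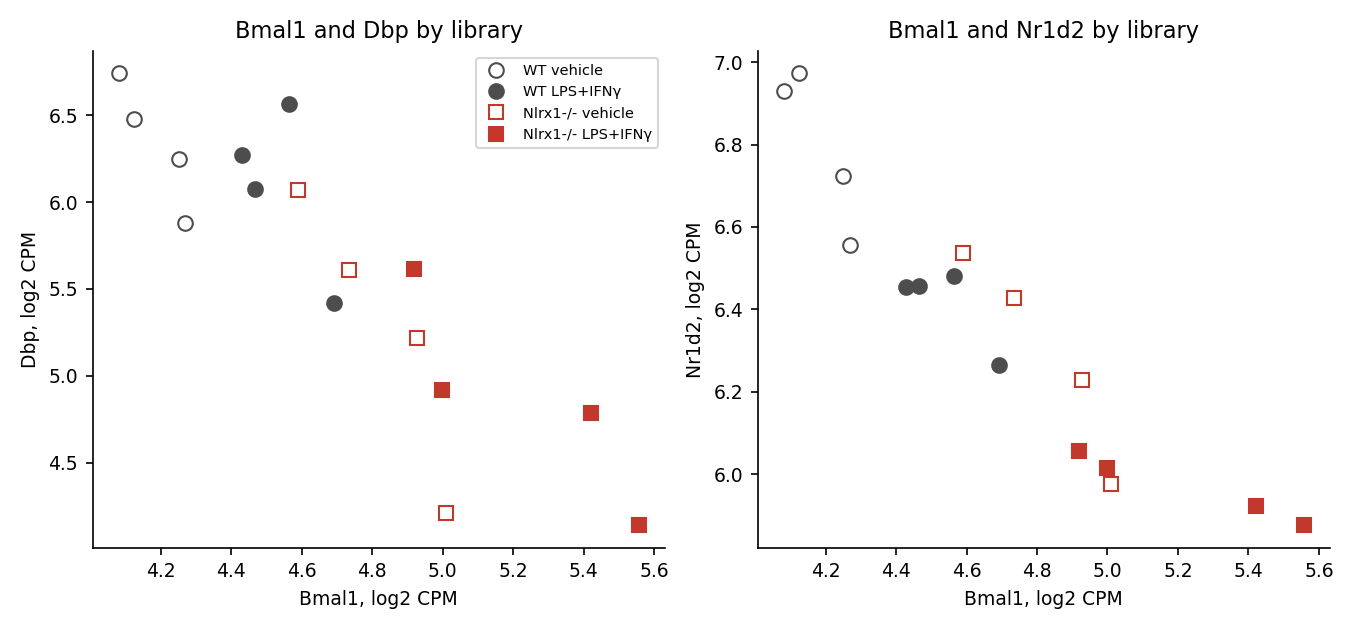
Bmal1 (x axis) against Dbp (left) and Nr1d2 (right), all in deposited log2 CPM, in each of the 16 libraries; circles are WT, squares Nlrx1-/-, open symbols vehicle and filled symbols LPS+IFNγ. Both panels run from upper left, with WT vehicle, to lower right, with stimulated Nlrx1-/- litters 2 and 4, at r = -0.89 for Dbp and -0.94 for Nr1d2.

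Among 12525 genes with a mean of at least 0 log2 CPM and an established symbol, the patterns most like that of Bmal1 over the 16 libraries were those of Ndufc2 (r = 0.97), Ybx3 (0.96), Rbis (0.96), Abcb6 (0.96) and Rbms3 (0.96). The most opposite patterns were those of Pcyt1b (r = -0.97), Zdhhc23, Emp1, Slc39a12 and Golph3l (each -0.96). Of the clock genes, Nr1d2 ranked 18 from the most opposite end, Per3 269 and Dbp 289, ranks that hold the genotype difference of Bmal1. After centring by condition they ranked 976, 1071 and 412, and the r of the 5 genes most like Bmal1 was 0.81 to 0.92 and that of the 5 most opposite was -0.92 to -0.85. Bmal1 thus shared its pattern with many genes outside the clock.

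The other genes of the clock pathway were taken from a second list of 24, all measured. In WT cells 4 of 24 rose and 5 of 24 fell with LPS+IFNγ, and in Nlrx1-/- cells 6 of 24 rose and 7 of 24 fell, by edgeR, shares near those of all genes tested (23.7% and 20.2% in WT, 25.2% and 24.2% in Nlrx1-/- cells). Their median log2 fold change was 0.10 in WT and 0.0016 in Nlrx1-/- cells. Nampt, the NAD salvage enzyme whose transcription is under clock control, rose by 1.89 ± 0.123 and 2.35 ± 0.124 (edgeR adjusted p = 7.96e-07 and 1.58e-07). Nfil3, a repressor that competes with DBP for D-boxes, rose by 1.46 ± 0.289 and 2.02 ± 0.289 (edgeR adjusted p = 0.00206 and 0.00022). Both rose in 8 of 8 litters, Nfil3 by 0.89 to 2.91 log2 units and Nampt by 1.81 to 2.77.

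The PAR bZIP relatives of Dbp were lower after stimulation in part. Tef fell by 0.20 ± 0.0521 in WT and by 0.31 ± 0.0523 in Nlrx1-/- cells (edgeR adjusted p = 0.0103 and 0.000599), and by 0.26 and 0.39 by limma on the deposited values. Hlf fell by 0.58 ± 0.183 in Nlrx1-/- cells (edgeR adjusted p = 0.0231), at 0.17 ± 0.18 in WT (edgeR adjusted p = 0.482), a difference of responses that did not pass the test (edgeR adjusted p = 0.234). Tef was also the one gene of the second list called between genotypes by edgeR, at -0.43 ± 0.116 with LPS+IFNγ (adjusted p = 0.0486), and 0 of 24 were called with vehicle or in the interaction.

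Bhlhe41, a repressor of BMAL1-CLOCK activity, fell by 0.24 ± 0.0853 in WT and by 0.53 ± 0.0863 in Nlrx1-/- cells (edgeR adjusted p = 0.0415 and 0.000502). Ciart, another repressor of the dimer, rose by 1.08 ± 0.29 in Nlrx1-/- cells (edgeR adjusted p = 0.00995, and 0.92 by limma), with 0.52 ± 0.288 in WT. Its summed counts were incomplete, at 61.1 to 105.5% of the count implied by the deposited table. Rorb, a nuclear receptor of the ROR family, rose by 0.41 ± 0.13 in WT and by 0.43 ± 0.13 in Nlrx1-/- cells (edgeR adjusted p = 0.025 and 0.0186). Wee1, a cell cycle kinase driven by the clock, fell by 0.52 ± 0.132 in Nlrx1-/- cells (edgeR adjusted p = 0.00736). Timeless, a replication fork protein linked to the clock, rose by 0.54 ± 0.158 in WT cells (edgeR adjusted p = 0.0173), with -0.06 ± 0.157 in Nlrx1-/- cells.

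**Figure D5:**
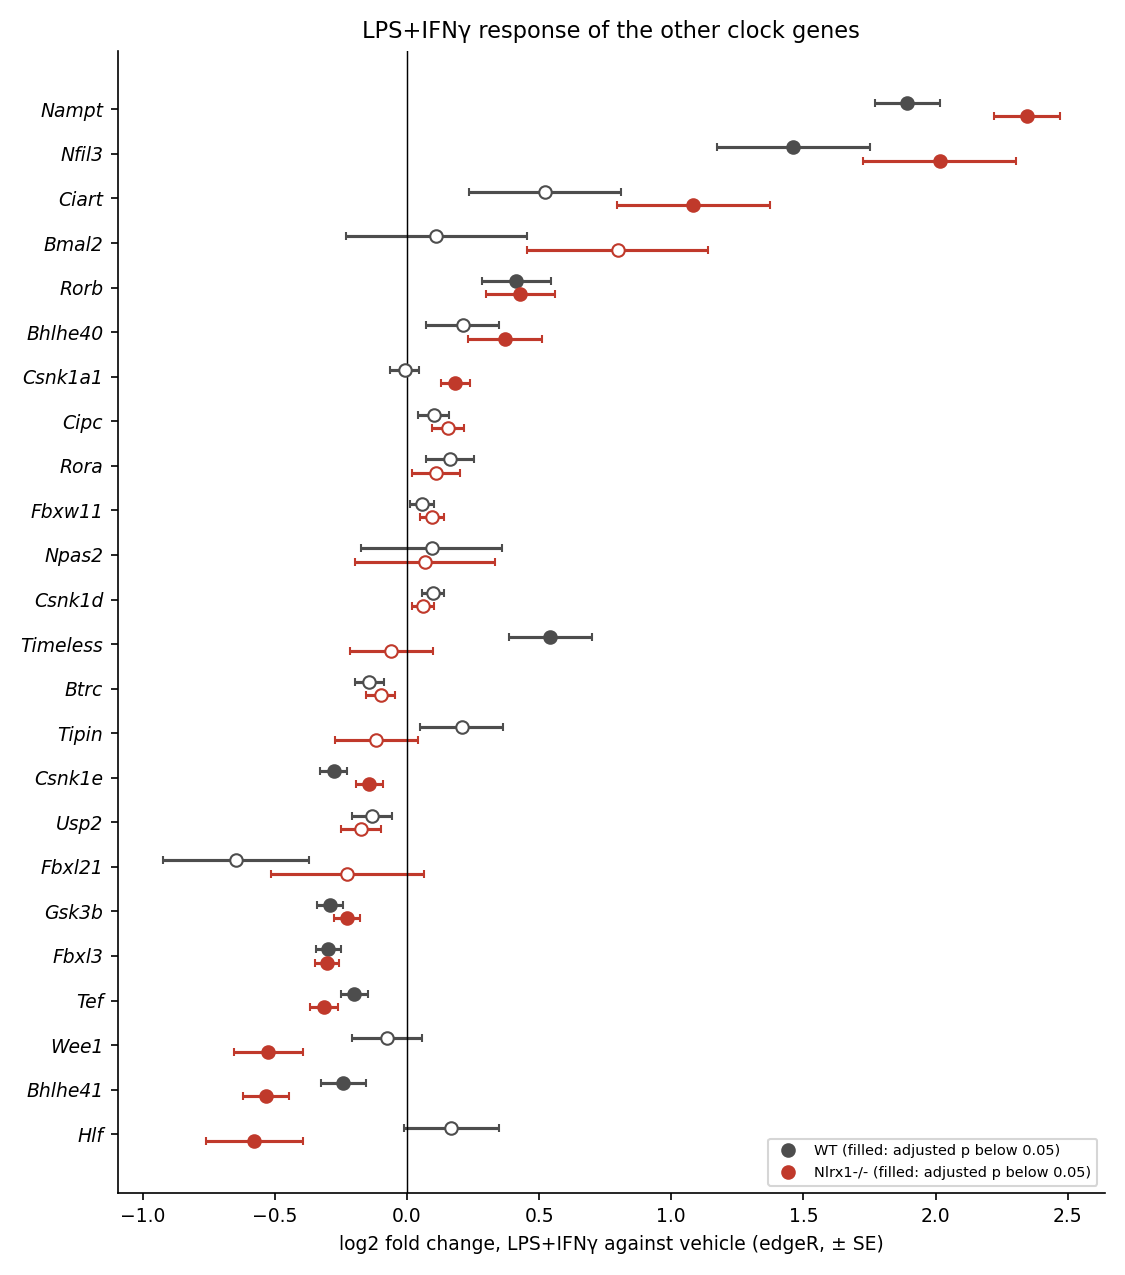
Log2 fold change of LPS+IFNγ against vehicle on the x axis for the 24 other clock genes, ordered by the Nlrx1-/- value, in WT (grey) and Nlrx1-/- (red) astrocytes; points are edgeR estimates, bars ± SE, and filled points have an adjusted p below 0.05. Nampt and Nfil3 lie far to the right of the rest in both genotypes, and Hlf lies farthest to the left in Nlrx1-/- cells.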

How the data were processed

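RNA from 16 astrocyte wells was sequenced as poly-A, non-strand-specific paired-end libraries. Per the labels and the study's methods, the authors quantified transcripts with Salmon 1.7.0 against GRCm39 and deposited an expected count per transcript, which is estimated and not normalized. Salmon's TPM, which is scaled to transcript length and library size, was deposited by the authors in the same files. The deposited log2 CPM values were made by the authors with limma 3.58.1, starting from counts scaled to length, dropping genes with few counts and using library sizes adjusted by TMM.

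Expected counts were summed by gene over the 106440 of 129698 transcripts that RefSeq pairs with a symbol, which held 96.7 to 97.3% of the reads. The sums were rounded for DESeq2 only. Because this misses some transcripts, a second set of counts was worked back from the deposited CPM. Counts were filtered with edgeR's filterByExpr (minimum count 10), scaled by TMM with length offsets, and tested with edgeR's quasi-likelihood test (edgeR 4.0.16, R 4.3.3) over 16070 genes. Responses and their difference between genotypes were fitted with litters as blocks, and genotypes were compared within each treatment in a fit of all 16 libraries by group. A gene was called at a Benjamini-Hochberg adjusted p below 0.05. Each SE given with an edgeR value was worked back from the test. It is the size of the log2 fold change divided by the square root of the F statistic. The scripts were tested on simulated data.

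Vehicle and stimulated wells of a litter are paired by the labels, and their deviations from the group means correlated at 0.07 to 0.35 (median 0.22, 8 litters). The same numbers in the other genotype gave -0.09 to 0.18 (median -0.01), so they were not used as pairs. The p-values of the responses, and of their difference between genotypes, measure how far the responses spread among litters. The fit by group that compared genotypes has no litter term. The vehicle and stimulated wells of a litter therefore entered its error estimate as if independent, although they share a culture. Alternatives were DESeq2 1.42.0, limma-voom, edgeR on recovered counts, limma on the deposited log2 CPM, other size factors, no offsets, no filter, the 8 libraries compared, other blocks, and each litter left out. Leaving out litters in the limma fit of Clock, Per3 and Nr1d2 was added after the data were seen.

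The 10 genes, the second list and the marker lists were chosen with earlier results of these data known. All 10 genes are described. Of the second list, the text names the 8 genes with the largest log2 fold changes among those called in a response, and those called between genotypes, with the 5 genes most and least like Bmal1 by Pearson r. One gene of the second list is not reported here and was left out of its counts and plot. Gene positions and exon overlaps are from GENCODE M39 (GRCm39), and promoters from RefSeq (GRCm38.p6), matched by sequence to GRCm39.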

Additional observations from a re-analysis of the deposited data

Results flagged for a closer look

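In 60 groups of 4 values (levels by condition and responses by genotype of the 10 clock genes), 3 held a value whose gap to its nearest neighbour exceeded 0.829 of the group's range, a share that chance alone gives in about 1 group of 20. Per2 stood at 5.09 log2 CPM in stimulated Nlrx1-/- litter 1, above the other 3 litters at 4.45 to 4.52. Nr1d2 stood at 6.26 log2 CPM in stimulated WT litter 1, below the other 3 at 6.45 to 6.48. The Dbp response of WT litter 1, at -0.46 log2 units, was larger than those of the other 3 WT litters, at -0.21 to -0.17.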

How the results depend on the processing

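The number of clock genes called in the responses stayed within 1.5 times the reported 8 (WT) and 9 (Nlrx1-/-) in 8 of 9 other settings each, the exception being the fit with no replicate block, which called 3 and 5. Of all 16070 genes, the fit with no replicate block called 3038 higher and 2342 lower in WT and 3364 higher and 3058 lower in Nlrx1-/- cells. Leaving out one litter gave 6 to 8 and 7 to 9 of the 10 clock genes. Of all genes, these fits called 3088 to 3990 higher and 2390 to 3438 lower in WT cells. In Nlrx1-/- cells they called 3483 to 4041 higher and 3145 to 3741 lower, of 16249 to 16325 tested. The interaction called 0 of 10 under all 8 settings and every litter left out. Of all genes, DESeq2 called 111 of 16070 higher and 185 lower. Without Nlrx1-/- litter 3, edgeR called 125 of 16302 higher and 191 lower. The other settings and the other edgeR fits with a litter left out called at most 1 gene.

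Calls between genotypes depended on the setting. With vehicle, DESeq2 called 1 of 9 (Nr1d2) and leaving out a litter gave 0 to 2. With LPS+IFNγ, where 2 of 9 were called, DESeq2, limma on the deposited log2 CPM and the replicate block, which pairs litters of equal number across genotypes, each called 4, the fit with no low-count filter called 1, the fit of the 8 libraries compared called 0, and leaving out a litter gave 0 to 5. Over all genes, the fit with no low-count filter called 293 of 24219 higher and 259 lower, and the fit of the 8 libraries compared called 0 of 14970. The cause was not tested. The litter numbers do not pair the genotypes, so the blocked value, beside which 13.7% of all genes were called, is given for completeness.

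Signs turned for values near 0. The WT response of Cry1 was 0.0031 on recovered counts, 0.0029 by limma on the deposited log2 CPM and 0.010 with no length offsets, and -0.021 to 0.025 with a litter left out. The Nlrx1-/- response of Per1 was 0.015 on recovered counts, 0.0064 by limma on the deposited values, 0.040 by limma-voom, 0.0033 with no length offsets and 0.054 with no replicate block, and -0.11 to 0.18 with a litter left out. In the interaction, Clock was 0.16 on recovered counts and by limma on the deposited values. With a litter left out, Clock was -0.21 to 0.052 by edgeR and 0.075 to 0.22 by limma, and Per1 was -0.021 to 0.28 by edgeR. Nr1d2 was 0.010 by DESeq2, 0.011 with relative log expression factors, 0.057 on recovered counts, 0.058 by limma on the deposited values and 0.026 with no length offsets. With a litter left out, Nr1d2 was -0.095 to 0.063 by edgeR and -0.017 to 0.11 by limma. Between genotypes with vehicle, Clock was -0.0062 on recovered counts and -0.012 by limma on the deposited values. With a litter left out, Clock was 0.063 to 0.34 by edgeR and -0.071 to 0.061 by limma, and Per1 was -0.19 to 0.094 by edgeR. With LPS+IFNγ, Per1 was -0.089 to 0.29. Clock and Nr1d2 are undercounted in the summed counts.

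Litter is nested in genotype, so genotype, colony and culture cannot be told apart between genotypes. With 4 litters a genotype, differences of the size seen for Per3 and Dbp lay near the threshold, and single time points give no phase.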
